A study of Homo sapiens with 8 samples.

Results

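Conserved sites of γ-H2AX gain are described here at 4 genes of the Wnt pathway: DVL1, NOTUM, CSNK1G2 and CTBP1, the last of which shares its promoter with the long non-coding RNA gene CTBP1-DT. The 4 genes were selected on the measured peak positions, because each lies beside an interval of the deposited list of conserved γ-H2AX peaks, and the interval nearest to its start was taken for each. This gave 4 of the 546 conserved peaks on the deposited list, a number that differs slightly from the paper's count of common peaks. That these genes have a peak is therefore how they were chosen and is not a result.

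HCT116 is a human colorectal carcinoma cell line, and in the study its endogenous TRAIP, a ubiquitin ligase, carried a mAID degron tag, so that auxin (IAA) triggers destruction of the protein. Cells were held in G1 with 20 μM lovastatin for 24 hours and released into 2 mM mevalonic acid, after which they reached S-phase at about 12 hours, and all groups shared this treatment. ChIP-Seq was done for H2AX and for γ-H2AX, its phosphorylated form that marks DNA damage signalling, each without IAA and with IAA, which gives 4 conditions of 2 repeats and 8 samples. The analysed list holds sites of increased γ-H2AX after TRAIP loss that were found in both repeats, with positions alone, so that no value per sample, no peak height and no spread between repeats can be given at any gene. The files hold no expression or marker values, so the cell line label could not be checked, and the degron cells model loss of TRAIP in 1 cancer line only.

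Wnt proteins are secreted ligands that bind Frizzled and LRP receptors at the cell surface. Without ligand, a destruction complex containing AXIN, APC, casein kinase 1 and GSK3 marks β-catenin for degradation, whereas Dishevelled proteins, recruited to the activated receptor, disable this complex, and β-catenin then joins TCF/LEF factors on chromatin. HCT116 cells carry a stabilising β-catenin mutation, so the pathway is constitutively active in them downstream of the receptor. NOTUM, an extracellular enzyme that removes the lipid from Wnt ligands and so inactivates them, acts at the start of the pathway. DVL1, a Dishevelled protein, and CSNK1G2, a casein kinase 1 of the gamma group that phosphorylates LRP6, act at the membrane and in the cytoplasm. CTBP1, a transcriptional co-repressor that can be recruited by TCF factors, acts in the nucleus.

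Bases that lay under the peaks of DVL1, NOTUM and CTBP1 are shown first, because the position of each peak in its gene is what the list measures. They were read from hg38 along the direction of transcription, untranslated parts of protein-coding transcripts were left out (the CTBP1 stretches still include exon of CTBP1-DT), and capitals mark GC boxes, that is GGGCGG or its complement CCGCCC, the sequence bound by SP1-type factors. The DVL1 stretch covers the 300 bases before the canonical start, the NOTUM stretch lies in intron 1, and the CTBP1 stretches lie before the start and at the beginning of intron 1.
DVL1, chr1:1349419-1349718, minus strand: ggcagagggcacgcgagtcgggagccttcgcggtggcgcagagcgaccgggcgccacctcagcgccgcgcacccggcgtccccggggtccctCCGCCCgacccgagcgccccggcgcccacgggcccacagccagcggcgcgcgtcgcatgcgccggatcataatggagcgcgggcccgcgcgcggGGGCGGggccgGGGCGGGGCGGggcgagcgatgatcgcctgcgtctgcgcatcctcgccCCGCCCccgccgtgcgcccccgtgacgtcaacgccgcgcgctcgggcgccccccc
NOTUM, chr17:81959811-81960039, minus strand: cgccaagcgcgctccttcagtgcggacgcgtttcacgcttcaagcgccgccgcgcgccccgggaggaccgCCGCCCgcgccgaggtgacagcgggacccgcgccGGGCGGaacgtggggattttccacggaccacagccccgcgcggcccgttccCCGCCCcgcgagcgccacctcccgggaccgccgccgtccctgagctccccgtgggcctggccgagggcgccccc
CTBP1 upstream, chr4:1249138-1249223, minus strand: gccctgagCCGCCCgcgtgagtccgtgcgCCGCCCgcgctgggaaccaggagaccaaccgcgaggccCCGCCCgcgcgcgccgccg
CTBP1 intron, chr4:1248748-1248915, minus strand: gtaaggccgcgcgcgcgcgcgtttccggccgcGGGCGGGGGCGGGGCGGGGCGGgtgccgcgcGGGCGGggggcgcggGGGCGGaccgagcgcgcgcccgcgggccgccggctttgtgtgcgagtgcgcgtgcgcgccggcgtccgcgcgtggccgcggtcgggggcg
In the CTBP1 intron stretch, which held 6 GC boxes, a group of them stood end to end and the others followed after short gaps. The DVL1 stretch of 300 bp held 5, most of them towards the start of the gene, and the NOTUM stretch of 229 bp held 3.

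The 4 peaks did not sit at the same place in their genes. Positions are given on hg38, with the start of the Ensembl canonical transcript in GENCODE 44 as 0, negative values upstream and positive values downstream along transcription. The peaks of DVL1 and CTBP1 covered the canonical start, that of CSNK1G2 lay wholly upstream of it, and that of NOTUM lay inside the gene. How edges were set where the repeats were intersected is not given in the sources used here.

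At NOTUM (ENSG00000185269, chromosome 17, minus strand, gene from 81952507 to 81961840), the peak ran from 81959489 to 81960039, which is 551 bp. It spanned +1148 to +1698 from the canonical start, with its midpoint at +1423, and the midpoint was 2076 bp downstream of the outermost annotated start. Of its bases, 420 were in introns of the canonical transcript and 131 in coding sequence, with 53 in exon 2 and 78 in exon 3. Only 1 of the 4 annotated starts of NOTUM lay in the peak, that of the alternative transcript NOTUM-203, and the peak midpoint was 46 bp downstream of it. NOTUM-203 is carried at transcript support level 5, the weakest of the annotation. Neither the canonical nor the outermost start of NOTUM was covered.

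At DVL1 (ENSG00000107404, chromosome 1, minus strand, gene from 1335276 to 1349418), the peak ran from 1349281 to 1349894 and was the widest of the 4 at 614 bp. It spanned −476 to +137, with 476 bp upstream of the start and 138 bp in the untranslated part of exon 1. Its midpoint was 170 bp upstream of the canonical start, which is also the outermost start. Of 7 annotated DVL1 transcripts, 1 started in the peak, the canonical one, which is also carried at support level 5. A DVL1 transcript at support level 1 started at +306, outside the peak.

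At CSNK1G2 (ENSG00000133275, chromosome 19, plus strand, gene from 1941172 to 1981338), the peak ran from 1940725 to 1941019 and was the narrowest of the 4 at 295 bp. It spanned −447 to −153, with its midpoint 300 bp upstream of the canonical start, and no annotated CSNK1G2 transcript of 11 started in it. The upstream edge of the gene was therefore 153 bp away from the nearest base of the peak.

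At CTBP1 (ENSG00000159692, chromosome 4, minus strand, gene from 1211445 to 1250333), the peak ran from 1248748 to 1249223, which is 476 bp, and spanned −93 to +382 with its midpoint at +144. By the canonical transcript, the peak held 93 bp upstream of the start, 215 bp of exon 1, which is untranslated there, and 168 bp of intron 1. In other annotated transcripts, 40 bp of the peak were coding sequence. Of 22 annotated CTBP1 transcripts, 4 started in the peak. The outermost CTBP1 start is far upstream, and from there the midpoint was at +1348.
The same interval held the start of CTBP1-DT (ENSG00000196810, plus strand, gene from 1248877 to 1288856), a divergent transcript of unknown function. The canonical starts of CTBP1 and CTBP1-DT were 91 bp apart and point away from each other, and both lay in the peak. Of 26 CTBP1-DT transcripts, 9 started in the peak, and 347 bp of the peak were exon of a long non-coding RNA. The outermost annotated ends make the genes overlap by 1457 bp, so reads from this interval cannot be assigned to either promoter.

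**Figure D1:**
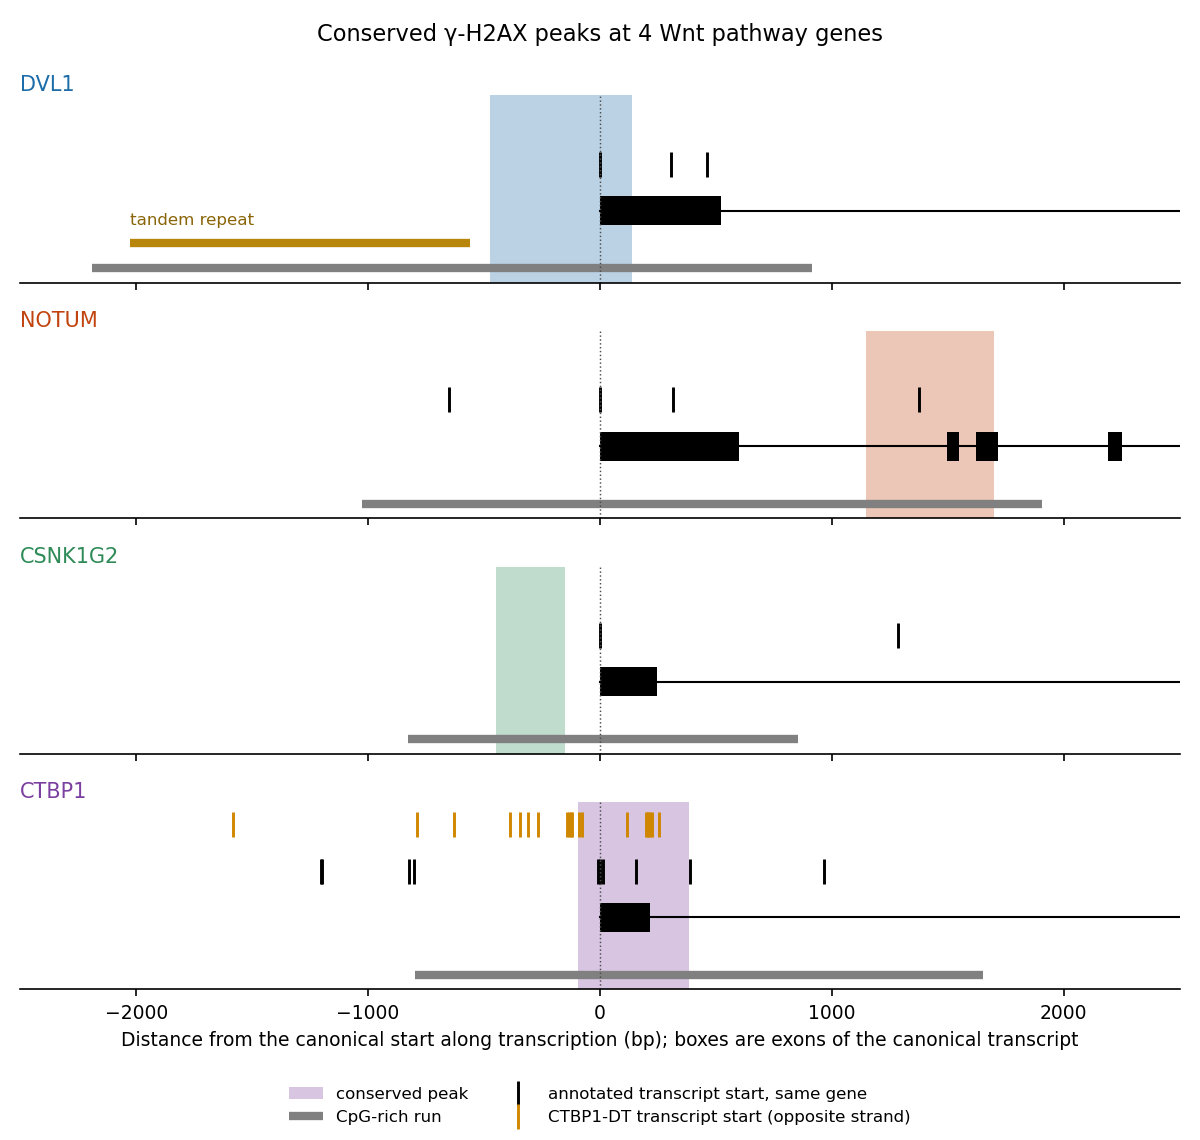
Position of the conserved peaks (shaded) at the 4 genes, with distance from the canonical start in bp along transcription on the x axis. Black boxes are exons of the canonical transcript, black ticks are annotated starts of the gene, orange ticks are starts of CTBP1-DT, the grey bar is the CpG-rich run and the gold bar is the tandem repeat at DVL1. The peaks of DVL1 and CTBP1 cover position 0, that of CSNK1G2 ends 153 bp before it, and that of NOTUM begins 1148 bp after it.

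In width, 3 of the 4 peaks were among the wider ones on the list. The median width of the 546 peaks was 308 bp, with quartiles of 254 and 406 bp. DVL1 was wider than 92.9% of all peaks, NOTUM than 90.5% and CTBP1 than 85.7%, whereas CSNK1G2 was wider than 44%. In GC content the order was another: CTBP1 reached 84.03% (95% Wilson interval 80.47 to 87.05), DVL1 80.62% (77.31 to 83.55), NOTUM 76.23% (72.5 to 79.59) and CSNK1G2 75.59% (70.38 to 80.15). These intervals treat bases as independent draws and describe precision from peak length only. The neighbours in this order overlapped in their intervals, and only CTBP1 lay wholly above NOTUM and CSNK1G2. The median GC content of the 546 peaks was 79.05% (quartiles 76.15 and 81.92), so CTBP1 exceeded 90.5% of peaks, DVL1 63.6%, NOTUM 25.3% and CSNK1G2 21.4%.

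**Figure D2:**
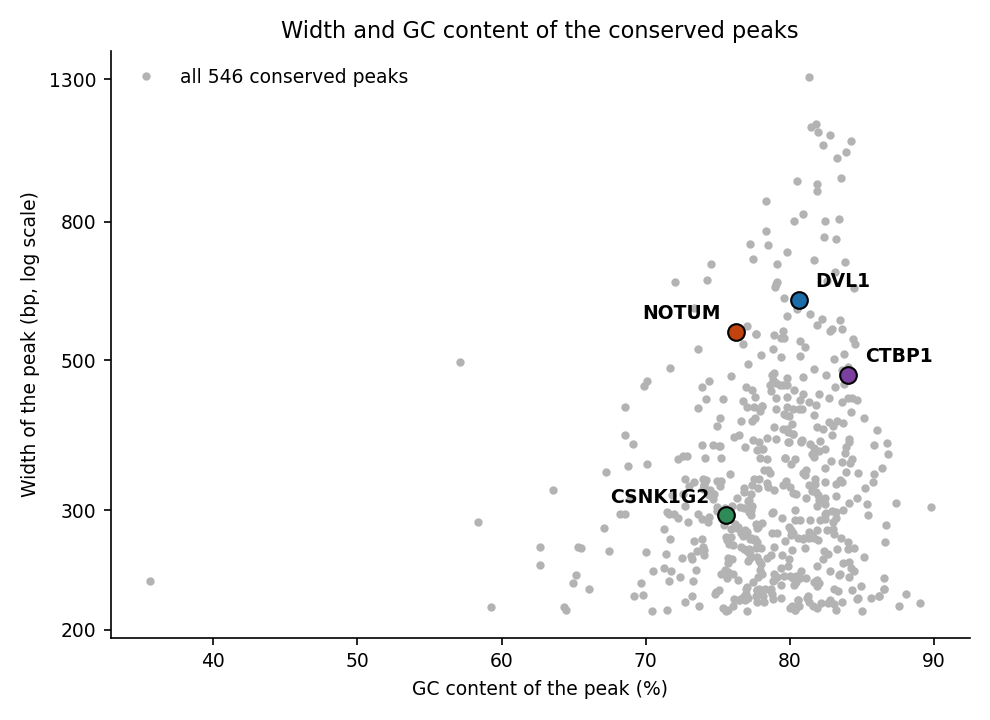
GC content in % (x axis) and width in bp (y axis, log scale) of the 546 conserved peaks, in grey, with those of the 4 genes in colour. DVL1 (614 bp), NOTUM (551 bp) and CTBP1 (476 bp) lie above the median width of 308 bp, and CSNK1G2 (295 bp) just under it.

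CpG dinucleotides separated CTBP1 from the rest. Its peak held 104 CpG sites in 476 bp, or 21.85 per 100 bp, the highest density among the 546 peaks. DVL1 had 17.43 per 100 bp (107 sites), CSNK1G2 16.27 (48 sites) and NOTUM 15.25 (84 sites). The observed number was above that expected from base composition in each of them, with ratios of 1.249 at CTBP1, 1.14 at CSNK1G2, 1.077 at DVL1 and 1.05 at NOTUM. Strand asymmetry differed in sign: along transcription G exceeded C by 9.5% of all G and C bases at CTBP1, whereas the skew was −6.667% at DVL1, −3.139% at CSNK1G2 and −1.905% at NOTUM. For CTBP1-DT, which is read from the other strand, the same bases have the opposite sign.

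Every peak sat in a longer CpG-rich run, and none filled it. A run was counted as continuous windows of 200 bp with at least 55% GC and a CpG ratio of at least 0.65. The run spanned −2192 to +916 at DVL1 (3109 bp), −1026 to +1908 at NOTUM (2935 bp), −796 to +1650 at CTBP1 (2447 bp) and −829 to +852 at CSNK1G2 (1682 bp). The share of the run that was peak was 19.75% at DVL1, 19.45% at CTBP1, 18.77% at NOTUM and 17.54% at CSNK1G2. The run at NOTUM thus joined its canonical promoter to the peak in the gene body. Among 20033 protein-coding genes the median run at the canonical start was 842 bp, and the share of genes with a shorter run was 99.5% for DVL1, 99.1% for NOTUM, 97.9% for CTBP1 and 89.8% for CSNK1G2. Genes with a peak had longer runs in general: over the 440 of them the median was 1489 bp (quartiles 1108.5 and 1844 bp), so CSNK1G2 lay between these quartiles and DVL1, NOTUM and CTBP1 above them.

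Much of the DVL1 run was a tandem repeat. From 1349979 to 1351445 (−2027 to −561), hg38 holds 1467 bp in which a unit of 40 bp recurs 36.7 times, with 99.16% of bases equal to the base a unit further on. Its GC content was 77.51%, with 109 CpG sites. The unit nearest to the peak is shown with CpG sites in capitals, because 84 bp are all that separate this array from the peak.
DVL1 repeat unit, chr1:1349979-1350018, minus strand: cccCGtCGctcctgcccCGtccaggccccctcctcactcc
No conserved peak overlapped the array. Reads from nearly identical units can map to several copies, and how the alignment placed them, and whether that set the upstream edge of the DVL1 peak, was not tested. A tandem repeat (period 10 to 60 bp, score of at least 200, 1 point per matching base) lay within 2 kb of the midpoint of 6 of the 546 peaks (1.1%) and of the canonical start of 45 of 20033 protein-coding genes (0.225%). Most of these were shorter or less regular than the DVL1 array: a score of at least 1000 was reached at 1 peak, that of DVL1, and at 7 canonical starts. No repeat of either score was found within 3 kb of the peaks of NOTUM, CSNK1G2 and CTBP1.

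The peaks did not simply mark the most GC-rich stretch of each gene. In windows of 300 bp within 2 kb of the canonical start, GC content peaked at 88.67% at DVL1 (+200), 86.0% at CTBP1 (+20), 85.67% at CSNK1G2 (+80) and 84.0% at NOTUM (+90). These positions are window centres, and only that of CTBP1 lay in the peak, although the DVL1 window partly overlapped its peak. Against windows as wide as the peak itself, the CTBP1 peak was more GC-rich than 97.01% of them, the DVL1 peak than 90.52%, the CSNK1G2 peak than 81.8% and the NOTUM peak than 55.61%. The place of the NOTUM peak changed with the span, from 38.308% over 1 kb on either side to 82.218% over 5 kb.

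**Figure D3:**
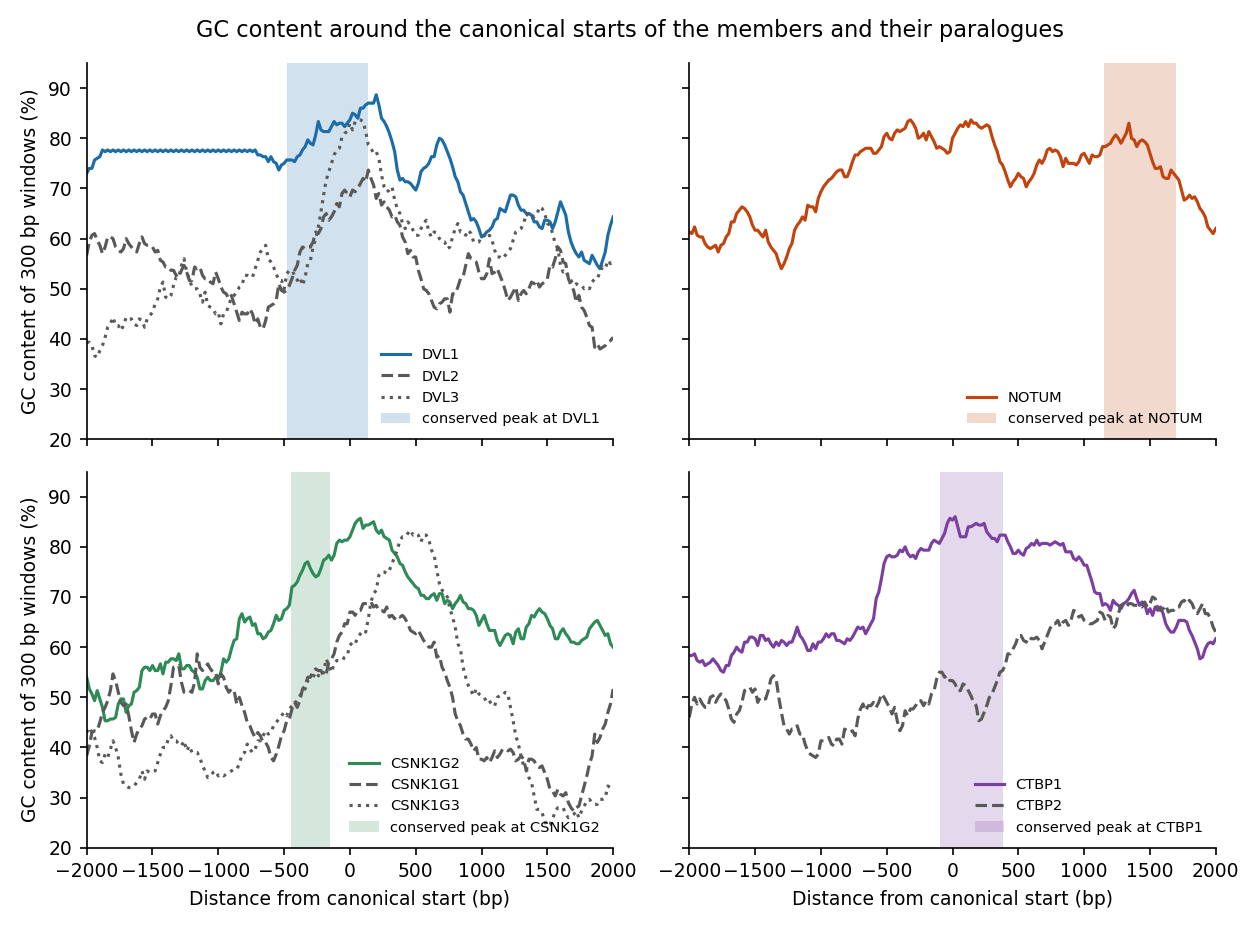
GC content in % of 300 bp windows (y axis) against distance from the canonical start in bp (x axis) for DVL1, NOTUM, CSNK1G2 and CTBP1 (coloured lines) and their paralogues (grey dashed and dotted lines), with the conserved peak shaded. The centre of the highest window lies in the shaded peak at CTBP1 only, and the flat stretch at 77.5% upstream of DVL1 is the tandem repeat.

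Short motifs were counted on both strands in the 300 bp around each peak midpoint. The share of promoters is that of 20032 protein-coding canonical starts, in windows of the same length from 250 bp upstream to 50 bp downstream. Peak windows were placed by the peak and promoter windows by the start, so the shares are not like for like. GC boxes numbered 9 at CTBP1, 7 at CSNK1G2, 5 at DVL1 and 1 at NOTUM, or 13, 7, 8 and 3 in the whole peaks, which differ in width, and at least 1 was present in 93.2% of the conserved peaks and 61.3% of promoters. The TCF/LEF core (CTTTGA or CTTTGT), the letters through which β-catenin partners bind DNA, was absent from all 4 windows, as from most others, with 8.42% of peaks and 21.0% of promoters holding it. In the whole peaks there was 1 match, in the CTBP1 intron printed above. The CCAAT box and the TATA box (TATAAA) had no match in the 4 windows, where 7.33% and 1.28% of peaks and 36.1% and 9.71% of promoters held them. The CGG repeat CGGCGGCGG was found at NOTUM and CTBP1, once in each, and once in the whole DVL1 peak outside its window, and in 28.4% of peaks against 9.25% of promoters.
A pattern of 4 runs of GGG separated by 1 to 7 bases, which can fold into a G-quadruplex, occurred 3 times at DVL1 and once at each of the other genes, and in 70.0% of peaks against 33.8% of promoters. The cAMP response element TGACGTCA, bound by CREB and ATF factors, was searched for after it was seen in the bases under the peaks: DVL1 and CSNK1G2 each held 1, at NOTUM and CTBP1 there was none, and it was present in 1.47% of peaks and 2.69% of promoters. A match describes letters only.

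By blastn, none of the 4 peaks had a copy elsewhere in hg38 at 90% identity over at least 80% of its length, or at 80% over 50%. This was the common state of the list, with 487 of 546 peaks (89.2%) without a copy at the first setting.

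No conserved peak lay within 2 kb of a start of the 5 paralogues, and as only 2.20% of all 20033 protein-coding genes had one, nothing is read from this. DVL2 and DVL3, the other Dishevelled genes, were 650.6 kb and 9086 kb from the nearest peak. CSNK1G1 and CSNK1G3, the other gamma casein kinases, were 755.0 kb and 11370 kb away, and CTBP2, the other CtBP co-repressor, was 5377 kb away. NOTUM has no paralogue in the list used here. These distances were measured from the canonical start, and from its outermost start CTBP2 was 5509779 bp away.
Sequence composition differed between members and paralogues in part. The highest 300 bp GC content was 73.67% at DVL2, 69.67% at CSNK1G1 and 70.0% at CTBP2, all under the 84.0% of NOTUM, the lowest member. It was 83.67% at DVL3 and 83.33% at CSNK1G3, which is within 1 point of NOTUM, and those genes had no peak within 9 Mb. Around the outermost start of CTBP2, which is far from its canonical start, it was 83.0%. Runs of CpG-rich sequence were shorter at the paralogues, with 901 bp at DVL2, 1018 bp at DVL3, 852 bp at CSNK1G1, 1219 bp at CSNK1G3 and none at the canonical start of CTBP2. Members and paralogues did not overlap in run length at the canonical starts. The median run was 842 bp over all protein-coding genes and 1489 bp over the 440 with a peak, so longer runs were not particular to the members. The run at the outermost start of CTBP2 was not measured. As the members were chosen for their peaks, no test was made of the difference between members and paralogues.

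On the chromosome, the 4 members shared a position close to an end. The peak at CTBP1 lay 1.249 Mb, that at NOTUM 1.298 Mb, that at DVL1 1.35 Mb and that at CSNK1G2 1.941 Mb from a chromosome end, on 4 different chromosomes. The median distance of the 546 peaks was 17.19 Mb, and 74 of them (13.6%) were within 2 Mb, a bound that was set after these distances were seen. The WNT7A, AXIN2 and CREBBP peaks, also at Wnt pathway genes, lay 13.88, 17.7 and 3.88 Mb from an end. The paralogues lay between 7.235 Mb (DVL2) and 58.03 Mb (CSNK1G3) from an end. Other conserved peaks within 1 Mb numbered 10 at CSNK1G2, 7 at NOTUM, 5 at DVL1 and 3 at CTBP1, against a median of 1 for all peaks (quartiles 0 and 2). The nearest other peak to each had the same count: 10 at ADAT3, 7 at RAC3, 5 at PUSL1 and 3 at FGFRL1. Such counts are thus shared with neighbouring peaks and are not particular to the members.
The gap to the nearest other peak was 34.95 kb at CSNK1G2, to a peak at ADAT3, which encodes a tRNA adenosine deaminase subunit. It was 40.55 kb at DVL1, to PUSL1, 71.11 kb at NOTUM, to RAC3, and 236.6 kb at CTBP1, to FGFRL1, which encodes a receptor of the FGF receptor family. Within 20 kb of the canonical starts, 10 other genes start: TAS1R3, MIR6808 and MXRA8 near DVL1, PYCR1, MYADML2, ASPSCR1 and 2 unnamed long non-coding RNA genes near NOTUM, CSNK1G2-AS1 near CSNK1G2, and CTBP1-DT. Apart from CTBP1-DT, which shares the CTBP1 peak, none of them had a conserved peak within 2 kb.

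The rest of the pathway was examined with a list of 105 Wnt genes that includes the members. A gene was counted as having a peak when 1 base of it lay within 2 kb of the outermost start. This held for 7 of the 105: the 4 members, WNT7A, AXIN2 and CREBBP. Among all 20033 protein-coding genes 440 had a peak, a background of 2.20%, and with the members left out the list had 3 of 101 (2.97%), a share near that background. NOTUM, at 1801 bp, was the member nearest to the 2 kb bound, and the nearest list gene outside it was GSK3A at 11069 bp, beside the peak at ERF.
The other genes with a peak act in different steps of the pathway. WNT7A encodes a ligand, and its peak (chromosome 3, 13879923 to 13880260, 338 bp, 81.07% GC) covered the start. AXIN2, a scaffold of the destruction complex and a known target of β-catenin, had a peak of 239 bp with 79.08% GC (chromosome 17, 65560757 to 65560995) that began 653 bp inside the gene. CREBBP, a histone acetyltransferase that assists β-catenin, had a peak of 365 bp with 83.84% GC (chromosome 16, 3880275 to 3880639) that began 74 bp inside the gene. The peaks of NOTUM, AXIN2 and CREBBP thus lay wholly downstream of the canonical start, that of NOTUM the farthest.
By role, a peak was found at 1 of 19 ligands, 1 of 5 ligand-processing genes, 2 of 12 cytoplasmic transducers, 1 of 12 genes of β-catenin destruction, 1 of 10 nuclear activators and 1 of 9 nuclear repressors. It was found at none of 15 receptor genes, 9 genes of the R-spondin axis and 14 secreted or membrane inhibitors. The peaks at ligand-processing genes, cytoplasmic transducers and nuclear repressors were those of members alone, which were chosen for their peaks. Over all protein-coding genes the share with a peak was 2.20%. With so few genes in each role, the shares were not compared.

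GC content and position were then set beside these counts. All 7 list genes with a peak had a 300 bp window of at least 75% GC near the canonical start, as did 81 of the 105, whereas 0 of the other 24 had a peak. The share of protein-coding genes with a peak was 4.90% at or above this GC content and 0.353% under it. Of the 77 such list genes that are not members, 3 (3.9%) had a peak. At the GC content of NOTUM or more, 15.5% of protein-coding genes had a peak, and of the 19 list genes there that are not members 1 did (5.26%), CREBBP. TLE2, a Groucho co-repressor, and WNT3A, a ligand, had the highest values on the list, 89.33% and 89.0%, and neither had a peak.
With a CpG-rich run of at least 1682 bp, that of CSNK1G2, 7.48% of protein-coding genes had a peak. Of the 23 list genes with such a run that are not members, AXIN2 and CREBBP had one (8.7%), and FZD10, with the longest run on the list (3876 bp), did not. WNT7A, with a run of 906 bp, was the gene with a peak and a short run.

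**Figure D4:**
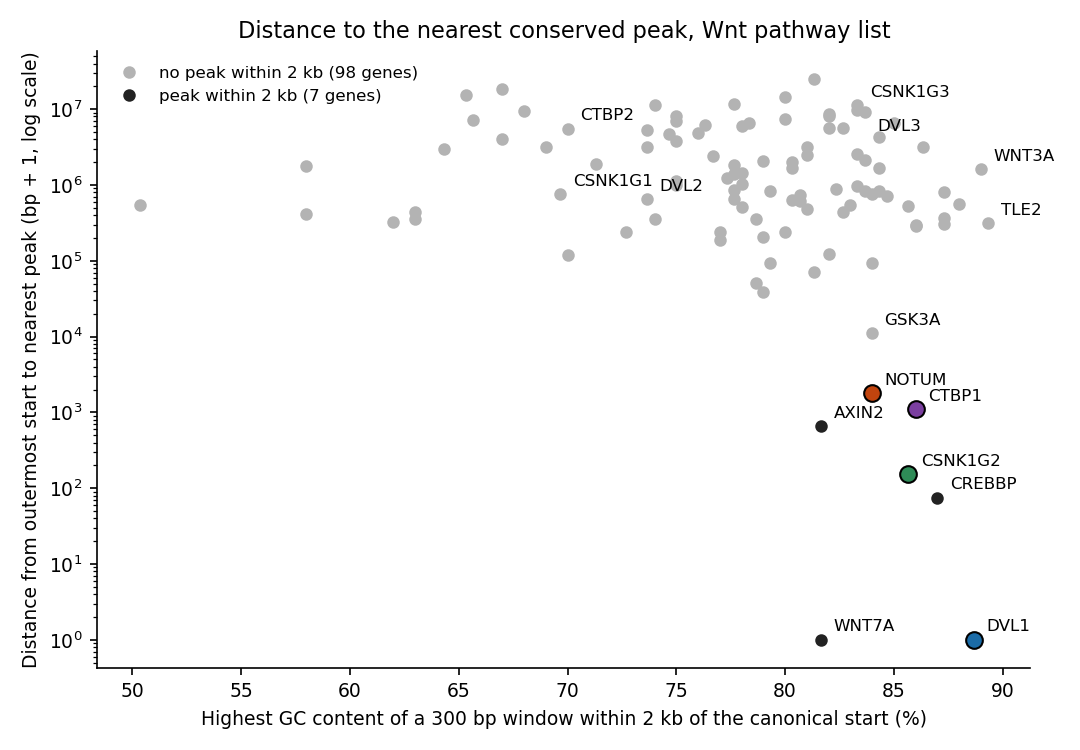
Distance in bp from the outermost start to the nearest conserved peak (y axis, log scale, 1 added) against the highest GC content in % of a 300 bp window within 2 kb of the canonical start (x axis) for the 105 genes of the Wnt list. The 7 genes with a peak within 2 kb all lie above 80% GC, many genes of like GC content lie over 100 kb away, and GSK3A at 11069 bp is the nearest of the others.

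Within 2 Mb of a chromosome end, 10 genes of the list were found, and those with a peak were the 4 members. The others were AXIN1, CSNK1D, RSPO4, NKD2, APC2 and WNT5B, which had none. Their highest GC content was 87.33% at AXIN1, 82.33% at RSPO4, 82.0% at NKD2, 79.0% at APC2, 78.0% at WNT5B and 77.0% at CSNK1D, so AXIN1 exceeded 3 of the members. Among all protein-coding genes within 2 Mb of an end 5.02% had a peak, and 7.41% of those that also reached 75% GC. Farther from the ends the share was 2.0% of protein-coding genes and 3 of 95 genes of the list. As the 4 members were chosen for their peaks, the 4 of 10 cannot be read against these shares.

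**Figure D5:**
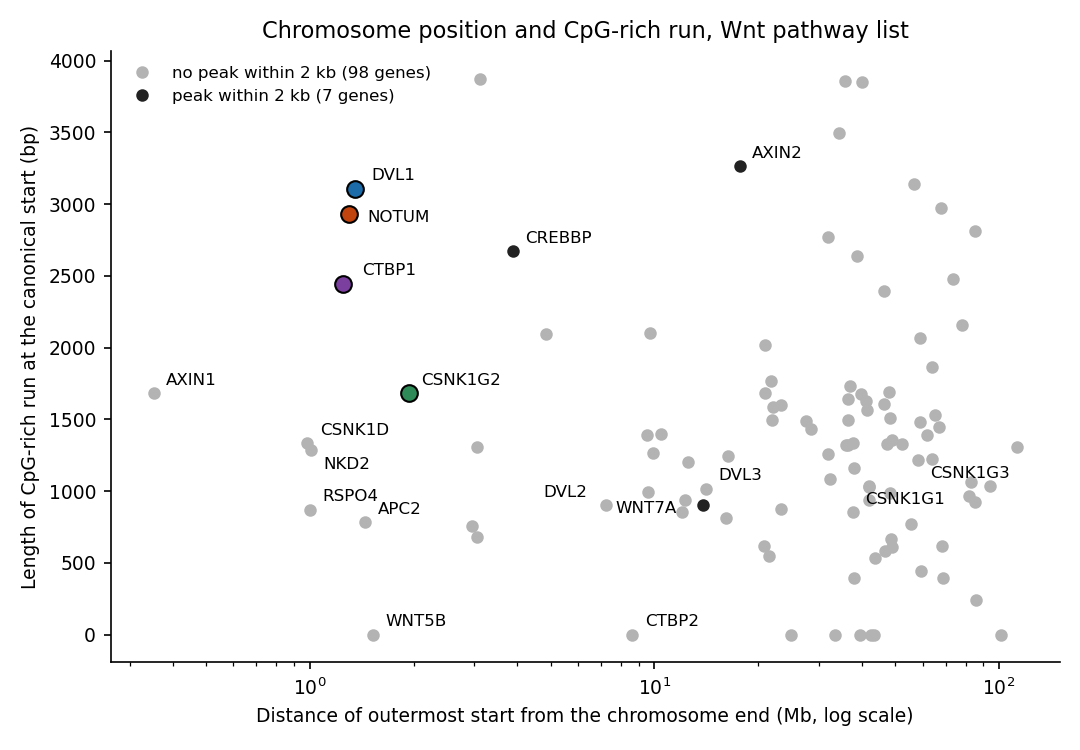
Length in bp of the CpG-rich run at the canonical start (y axis) against distance in Mb of the outermost start from the chromosome end (x axis, log scale) for the 105 genes of the Wnt list, with genes that have a conserved peak in black or colour. The 4 members lie between 1.25 and 1.941 Mb with runs of 1682 bp or more, and AXIN1, nearer to the end at 0.3527 Mb, has a run of 1684 bp and no peak.

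Finally, the peaks most like those of the members were sought among 423 peaks at protein-coding genes, by the distance over midpoint offset, width and GC content, each divided by its interquartile range. CTBP1 had the closest counterparts, with KLHL36 at a distance of 0.0829 (489 bp, 84.05% GC, midpoint at +137) and TSNARE1 at 0.156. CSNK1G2 was closest to MSI2, which encodes a Musashi RNA-binding protein, at 0.154, and to BAIAP3 at 0.222. DVL1 was closest to SMAD2, which encodes a transducer of TGF-β signalling, at 0.321, and to PAXIP1, which encodes a DNA damage response protein, at 0.358. NOTUM stood farther from any other peak, with ERF at 0.816 and NOTCH3, which encodes a Notch receptor, at 1.25, whose midpoints were also inside the gene at +1174 and +1047. None of these 8 genes is on the Wnt list. As only 7 of the 440 protein-coding genes with a peak are on it, nothing is read from this.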

How the data were processed

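γ-H2AX and H2AX ChIP-Seq in HCT116 TRAIP-mAID cells, either untreated or given IAA, gave 8 samples, 2 repeats per condition. According to the submitters' processing notes and the study's methods, the authors aligned reads to hg38 with Bowtie2 2.4.2, called peaks with MACS2 2.1.1 in each repeat and kept peaks of both with bedtools. The deposited list gives chromosome, start and end only (another kind of value, with no score, count or signal), so depth cannot be read from it, no test between groups was made and every value is a description.

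Starts were read as 0-based and are given 1-based. The 4 members, the paralogues and the Wnt list were chosen with earlier results of these data known. The 2 Mb bound, the bounds on GC content and run length taken from members, the tandem repeat search and the cAMP response element were set after values were seen. Intervals were compared with GENCODE 44 and with the hg38 sequence, from which GC content (300 bp windows, 10 bp steps), CpG sites and motifs were counted. A tandem repeat scored at least 200, adding 1 for each base equal to the base 1 period on and subtracting 9 otherwise. Named genes were the members, the paralogues, list genes with a peak, genes starting within 20 kb, the nearest other peak, and the 2 most like peaks; others were added after their values were seen. Routines were tested on simulated intervals. Copies were sought with blastn 2.17.0. Other steps used pysam 0.24.0, scipy 1.17.1, numpy 2.4.6 and matplotlib 3.10.9 under Python 3.11.15. The sequence under the CSNK1G2 peak is not reported here. Read-level data, γ-H2AX signal and expression were not analysed here.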

Additional observations from a re-analysis of the deposited data

How the results depend on the processing

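Values were compared under 69 alternatives. The tolerances differ by measure (1.5 times for counts and run lengths, the distance from midpoint to edge for offsets, the Wilson interval for GC content and GC ranks, 2 kb for distances to a peak, no change for copies), and so a count of genes may change where a rank may not. By them 52 alternatives left the value in place, 16 moved it and 1 changed its sign. The CTBP1 midpoint changed from +144 to -10 bp when measured from the nearest start of any transcript, and that of NOTUM from +1423 to +46 bp. The Wnt list had 5 genes with a peak at 1 kb, where NOTUM and CTBP1 were lost, 6 by peak midpoint, without NOTUM, 6 with peaks of at least 250 bp, without AXIN2, and 7 otherwise, while protein-coding genes with a peak ranged from 360 to 515. Ranks of peak GC moved with the span compared: over 5 kb and 1 kb on either side they were 96.204% and 81.095% at DVL1, 82.218% and 38.308% at NOTUM, 92.707% and 63.682% at CSNK1G2, and 98.801% and 94.03% at CTBP1. From the nearest start of any transcript, no paralogue came closer to a peak than 602044 bp, at CSNK1G1. Alternatives chosen after seeing the data were looser CpG thresholds (50% GC and a ratio of 0.6), under which runs of the members were 1769 to 3203 bp, and the outermost start, around which the highest GC of CTBP2 rose from 70.0% to 83.0%. No paired analysis was possible because a single list stands for both repeats, with nothing measured per sample. Hence no repeat was left out, and without scores no stricter threshold was set. The depth of each repeat may limit which sites entered the list, which was not tested, and a gene without an interval is not shown to lack γ-H2AX.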
